A study of Mus musculus with 4 samples.

Results

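Interferon response and antigen presentation genes were followed in engineered mouse muscle, a cultured 3D tissue of skeletal muscle, with and without electrical stimulation. The set holds 40 genes, taken by the gene names of the array files, of 31893 genes on the array. It comprises 5 sensors of foreign nucleic acids and their adaptors, 4 transcription factors, 8 effectors that act on RNA, 6 dynamin-like and membrane effectors, 7 genes of the ISG15 system and other interferon-induced genes, 6 GTPases induced by interferon-gamma, and 4 genes of class I antigen presentation. In the study, total RNA from tissue that received a 30-min acute bout of electrical stimulation (EPS, used to make cultured muscle contract) was compared with RNA from unstimulated tissue. The 4 groups were stimulated and unstimulated tissue at 5 h, and stimulated and unstimulated tissue at 0 min, the times being counted from the end of the stimulation. All 4 groups are tissue of the same kind in culture, and the labels used here do not give a strain, the cells the tissue was built from or how many tissues gave each RNA sample. Each group was hybridised to 1 single-colour array, so every difference below describes these arrays, carries no error between tissues and was not tested.

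Interferons bind receptors at the cell surface, which activate the kinases Jak1, Jak2 and Tyk2. Among their targets is Stat2, which acts with Irf9 at the interferon-stimulated response element (ISRE), while interferon-gamma acts through the gamma-activated site (GAS). Interferon-gamma and Irf1 also raise the class I genes that display peptides to T cells, and muscle fibres, which carry little class I at rest, are known to gain it in inflammatory muscle disease.

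Promoters of the set were read from RefSeq (assembly GRCm38.p6), which had an entry for 30 of the 40 genes. Both strands of each window, 250 bases before to 50 bases after the start, were searched for the ISRE core, a pair of GAAA repeats with 2 bases of any kind between them, and the GAS core TTCNNNGAA. The ISRE core was in 15 of the 30 genes, against 3.99% of 27025 genes with an entry, and the GAS core in 8 of the 30, against 9.55%. Stretches of 250 bases before the start are given for 5 genes whose RNA differed in opposite ways or hardly at all. They run 5′ to 3′ in the direction of transcription with each match in capitals, so that the motif content can be set beside the values further on. All 5 hold a match. A stretch was also read for H2-K1, whose RNA hardly differed, and it held neither core and is not printed.
Ifit3, chr19:34583279-34583528, plus strand: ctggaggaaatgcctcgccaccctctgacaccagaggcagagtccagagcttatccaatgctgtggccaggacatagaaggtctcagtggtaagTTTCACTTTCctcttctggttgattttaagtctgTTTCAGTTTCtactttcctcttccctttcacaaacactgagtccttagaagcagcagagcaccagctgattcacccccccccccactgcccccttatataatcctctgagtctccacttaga
Ifit2, chr19:34550444-34550693, plus strand: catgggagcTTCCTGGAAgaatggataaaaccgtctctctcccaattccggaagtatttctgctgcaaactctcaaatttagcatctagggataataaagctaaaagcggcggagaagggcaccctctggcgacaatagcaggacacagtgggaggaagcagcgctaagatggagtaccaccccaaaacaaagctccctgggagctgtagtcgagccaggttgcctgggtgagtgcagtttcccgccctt
Igtp, chr11:58199306-58199555, plus strand: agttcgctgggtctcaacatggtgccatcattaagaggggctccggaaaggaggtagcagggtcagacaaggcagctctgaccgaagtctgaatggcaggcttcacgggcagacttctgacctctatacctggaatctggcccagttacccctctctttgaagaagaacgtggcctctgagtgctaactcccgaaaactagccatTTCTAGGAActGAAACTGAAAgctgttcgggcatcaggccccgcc
Isg15, chr4:156200819-156201068, minus strand: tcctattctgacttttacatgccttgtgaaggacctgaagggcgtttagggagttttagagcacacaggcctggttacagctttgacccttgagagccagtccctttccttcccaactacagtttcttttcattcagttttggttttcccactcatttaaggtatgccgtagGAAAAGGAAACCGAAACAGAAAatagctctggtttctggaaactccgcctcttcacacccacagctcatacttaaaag
B2m, chr2:122147437-122147686, plus strand: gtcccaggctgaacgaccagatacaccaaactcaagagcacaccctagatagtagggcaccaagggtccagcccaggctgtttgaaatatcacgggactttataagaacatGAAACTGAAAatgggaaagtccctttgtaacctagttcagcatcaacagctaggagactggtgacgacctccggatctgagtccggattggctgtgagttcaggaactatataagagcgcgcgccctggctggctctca
Ifit3 holds separate ISRE matches on its minus strand and Ifit2, its neighbour, a GAS match alone. Ifit2 has a further start whose window held neither core, and the window with the match is the one printed. In the counts a gene held a core when any of its windows did. Igtp has a GAS match just before an ISRE match, Isg15 has overlapping ISRE matches and B2m has a single ISRE match. All 4 GTPase genes with an entry (Gbp2, Gbp3, Igtp and Irgm1) held the ISRE core.

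Signals are the scanner software's processed intensities after background subtraction. A level is the log2 of that signal minus the log2 of the array's 75th percentile, which was 1491.9 with EPS and 1280.3 without EPS at 5 h, and 1093 with EPS and 1362.5 without EPS at 0 min. Differences and folds are between levels, so they are corrected for these percentiles and are not ratios of the printed signals. Between 19166 and 19420 genes were well above background on each array, no spot was saturated, and 272 to 275 probes printed as 10 spots gave the technical error. The standard deviation of a log2 difference between arrays, taken over the spots of a probe, had a median of 0.082 to 0.085 over the 4 comparisons. It was 0.231 to 0.304 for probes with a mean signal under 100, 0.092 to 0.104 between 100 and 1000, and 0.067 to 0.073 above 1000. All 10 muscle markers were well above background on every array, and the labelling protocol speaks of leukocyte RNA. Of 15 leukocyte markers 8 were well above background on all 4 arrays, among them Itgam at signals of 7587.9 to 10393.8, while Ptprc, Lyz2, Cd3d, Ms4a1 and Itgax were not on any array.

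Of the 40 genes, 28 were well above background on all 4 arrays, 3 on some arrays and 9 on none. The 9 were Ifit1, Oas1a, Oas2, Mx1, Rsad2, Ifi44, Gbp6, Cmpk2 and Tap1, which include several of the most strongly interferon-induced genes in other mouse cells. Irf7 was well above background on 3 arrays, Oasl2 on 3 and Usp18 on 2. Ifnb1, the gene for interferon-beta, was well above background only on the array of EPS at 0 min, at a signal of 21.5, against 4.3 without EPS at 0 min, 3.8 with EPS at 5 h and 3.4 without EPS at 5 h. Ifng, the gene for interferon-gamma, was above background only at 0 min, at 41.7 with EPS and 88.4 without EPS. Of 15 interferon genes on the array, 9 were above background on any array, and all of their signals were under 100, where spots of the same probe differ most.

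As for the array as a whole, larger differences lay between the times than between stimulated and unstimulated tissue. At 5 h against 0 min, 5 of 29 measured genes of the set were at least 2-fold lower with EPS, against 3.64% of all measured genes, and 0 were at least 2-fold higher, against 2.39%. At 1.5-fold the set had 9 lower and 1 higher, against 12.5% and 7.9% of all genes, and 23 were below 0, against 57.5%. Without EPS, 3 of 29 were at least 2-fold lower, against 2.96%, and 2 at least 2-fold higher, against 1.74%. At 1.5-fold it had 8 lower and 2 higher, against 9.38% and 6.6%, and 19 were below 0, against 52.5%. The median difference of the set was -0.26 with EPS and -0.21 without EPS, beside -0.08 with EPS and -0.02 without EPS for all measured genes, and it was below 0 under each scaling tried. Of the counts with EPS, the 5 genes at least 2-fold lower numbered 1 under median scaling and 2 under quantile normalization or normexp correction. At 1.5-fold lower, median scaling gave 5 with EPS and 5 without EPS, and normexp gave 9 with EPS and 5 without EPS.

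The time differences with and without EPS share no array. Of the 28 genes measured in both, 16 (57.1%) were lower at 5 h in both, against 44.3% of 18109 genes, and 4 (14.3%) were higher in both, against 34.7%. Ddx58, Ifit2, Ifit3, Parp14 and Rtp4 were at least 1.5-fold lower in both, which is 17.9% of the set and 6.24% of all genes, and Ifit3 and Rtp4 were at least 2-fold lower in both (7.14% and 1.62%). With EPS, Ifit3 stood at -0.96 under median scaling, -0.997 under quantile normalization and -0.865 under normexp correction, short of 2-fold in each. Under median scaling Ddx58, at -0.475 with EPS and -0.49 without EPS, and Ifit2, at -0.52 with EPS, were short of 1.5-fold, as was Parp14 under normexp, at -0.53 without EPS. Igtp alone was at least 1.5-fold higher in both, 3.57% of the set and 4.3% of all genes, and stood at 0.58 with EPS under normexp, just short of it. Across the 28 genes the paired differences had a Pearson correlation of 0.751 and a Spearman correlation of 0.738, near the 0.775 and 0.754 across all 18109 genes. These are correlations across genes, which are not replicates, on arrays of 1 slide.

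**Figure D1:**
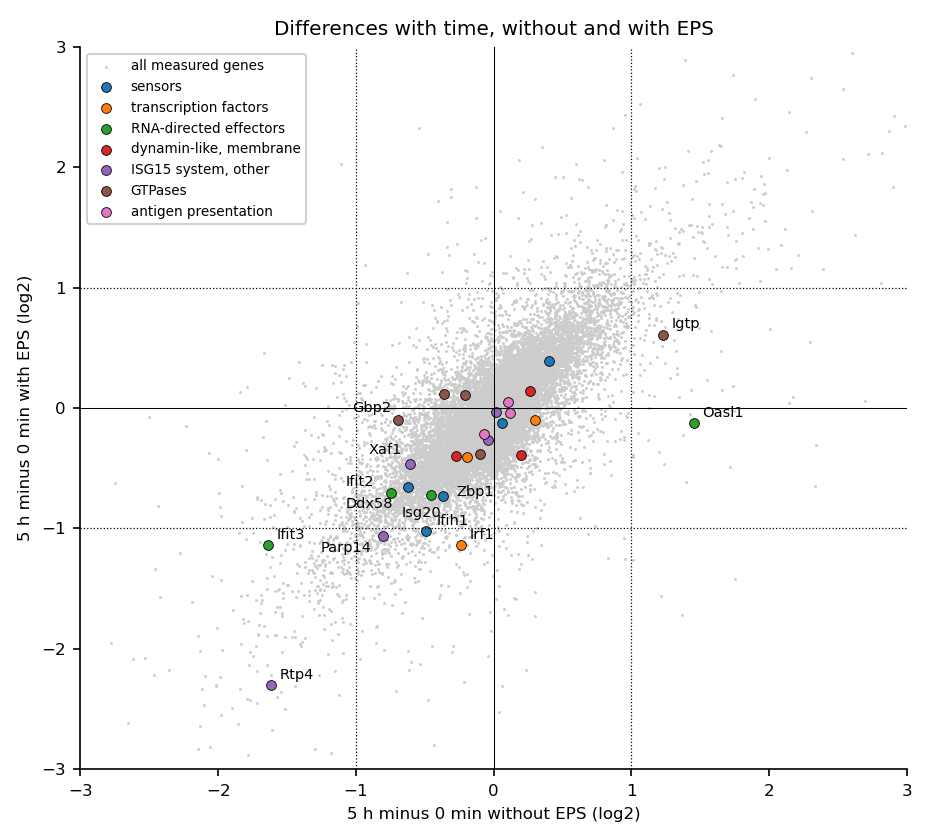
Difference between 5 h and 0 min in log2 units, with EPS on the vertical axis and without EPS on the horizontal axis. Coloured points are the 28 genes of the set measured on all 4 arrays, by role, and grey points are all measured genes within the axes, with dotted lines at 2-fold. Rtp4 and Ifit3 lie beyond 2-fold lower on both axes, Igtp is higher on both, and Oasl1 is higher without EPS alone.

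Fibroblast markers were mostly lower at 5 h as well. Of 9 measured fibroblast markers, 8 were lower at 5 h with EPS (median -0.62), against 57.5% of all genes. Without EPS 7 were lower (median -0.54), against 52.5%. Pdgfrb, a receptor of connective tissue cells, had the largest difference, at -2.43 with EPS and -1.77 without EPS. Pdgfra went the other way, at 0.46 with EPS and 0.72 without EPS, and Dcn stood at 0.04 without EPS. Thy1 was not above background on any array. The summed scaled signal of the fibroblast list was 253.1 with EPS and 295.3 without EPS at 5 h, and 354.6 with EPS and 323.8 without EPS at 0 min. Muscle markers had smaller time medians of -0.34 with EPS and -0.19 without EPS, and summed to 477.5 with EPS and 484.5 without EPS at 5 h, and 599.9 with EPS and 543.3 without EPS at 0 min. Of 15 leukocyte markers 9 were above background on any array, with time medians of -0.20 with EPS and -0.26 without EPS and sums between 7.93 and 9.36. One of them, S100a8, a calcium-binding protein abundant in neutrophils, had a signal of 1073.8 with EPS and 200.3 without EPS at 5 h, and 86.0 with EPS and 97.1 without EPS at 0 min. On the same list S100a9 and Ly6g were lower with time, at -0.19 and -0.77 with EPS and at -0.64 and -0.44 without EPS. The 3 endothelial markers above background had time medians of -0.53 with EPS and -0.09 without EPS, with Cdh5 and Tek not above background. The part of the cell mixture in the differences of the interferon set was not tested, and in bulk tissue fewer cells of a type and less RNA per cell cannot be told apart.

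Among the sensors, Ddx58, Ifih1 and Zbp1 were lower at 5 h with and without EPS. Ddx58, the sensor RIG-I, had a signal of 470.9 with EPS and 458.4 without EPS at 5 h, and 543.9 with EPS and 751 without EPS at 0 min. Its time difference was -0.66 with EPS and -0.62 without EPS, or 1.58-fold and 1.54-fold lower, while its EPS differences were -0.18 at 5 h and -0.15 at 0 min. Both arrays at 5 h were therefore lower than both at 0 min. Ifih1, the sensor MDA5 for long double-stranded RNA, was dim on all arrays, with signals of 22.3 with EPS and 31.3 without EPS at 5 h, and 33.2 with EPS and 46.8 without EPS at 0 min. It was lowest on the array of EPS at 5 h, 2.04-fold lower than with EPS at 0 min and 1.64-fold lower than without EPS at 5 h, and its signal lies where single spots differ most. Under normexp background correction these 2 differences were -0.60 and -0.365.

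Zbp1, a sensor of Z-form nucleic acids that can start cell death, was highest directly after stimulation. Its signal was 177.4 with EPS and 129.1 without EPS at 5 h, and 216.3 with EPS and 176.8 without EPS at 0 min, and its EPS difference was 0.24 at 5 h and 0.61 at 0 min. Its time difference was -0.73 with EPS, or 1.66-fold lower, and -0.36 without EPS. Trim25, the ubiquitin ligase that acts in the RIG-I pathway, went the other way with time: its signal was 6464.6 with EPS and 5846.7 without EPS at 5 h, and 3613.4 with EPS and 4696.9 without EPS at 0 min. It was 1.31-fold higher at 5 h with EPS and 1.33-fold higher without EPS, and its EPS differences were -0.08 at 5 h and -0.06 at 0 min. Dhx58, the helicase LGP2 that tunes the other sensors, was dim and differed by at most 0.34 in any comparison.

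Of the transcription factors, Irf1 differed most. Irf1, induced by interferon-gamma and by NF-kB, had a signal of 3235.7 with EPS and 4051.6 without EPS at 5 h, and 5216 with EPS and 5068 without EPS at 0 min. It was 2.20-fold lower at 5 h than at 0 min with EPS and 1.18-fold lower without EPS. The EPS difference was -0.55 at 5 h and 0.36 at 0 min, opposite in sign, and these differ by -0.90 on the log2 scale. The array of EPS at 0 min held the highest level of Irf1 and that of EPS at 5 h the lowest.

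The 3 factors of the interferon-alpha and -beta response differed less. Stat2 had signals of 1392.6 with EPS and 1280.7 without EPS at 5 h, and 1354.9 with EPS and 1558.2 without EPS at 0 min, and its time differences were -0.41 with EPS and -0.19 without EPS. Irf9, its DNA-binding partner, had signals of 1200.6 with EPS and 1046.7 without EPS at 5 h, and 942.9 with EPS and 904.6 without EPS at 0 min, and was lowest without EPS at 0 min. Its EPS difference was -0.02 at 5 h and 0.38 at 0 min. Irf7, which drives interferon-alpha genes, stayed near background, with signals of 30.5 with EPS and 22.6 without EPS at 5 h, and 25.3 with EPS and 26.3 without EPS at 0 min, the last not well above background. At 0 min the level of Irf7 was 1.20-fold higher with EPS than without EPS. Its signal without EPS was not well above background, so this fold is no firm bound. The log2 difference was 0.264, and the median spot error at 0 min for signals under 100 was 0.243.

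The RNA-directed effectors held the largest differences of the set after Rtp4. Ifit3, which works with other Ifit proteins that bind foreign RNA, had a signal of 89.2 with EPS and 72.4 without EPS at 5 h, and 144.2 with EPS and 239.4 without EPS at 0 min. It was 2.21-fold lower at 5 h with EPS and 3.11-fold lower without EPS, the 121st lowest of 18488 time differences without EPS. On the log2 scale the time difference without EPS was -1.64, and -1.12 under normexp background correction. Ifit2, its neighbour on chromosome 19 and a binder of RNA that limits translation, had a signal of 294.8 with EPS and 265.1 without EPS at 5 h, and 351.4 with EPS and 472.2 without EPS at 0 min. It was 1.63-fold lower at 5 h with EPS and 1.67-fold lower without EPS. For both genes the array without EPS at 0 min was the highest, and both 5 h arrays lay below both 0 min arrays.

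Isg20, an exonuclease that degrades RNA, had a signal of 4360 with EPS and 3824.1 without EPS at 5 h, and 5258.7 with EPS and 5576.3 without EPS at 0 min. Its time difference was -0.72 with EPS and -0.45 without EPS. Oasl1 and Oasl2, adjacent genes of the oligoadenylate synthetase family on chromosome 5, had opposite signs in both comparisons where each was measured; the EPS difference of Oasl2 at 0 min was -0.21, and 0.02 under normexp background correction. In mice Oasl1 is known to limit the translation of Irf7, and Oasl2 to make oligoadenylates. Oasl1 had a signal of 70.8 with EPS and 64.2 without EPS at 5 h, and 56.6 with EPS and 24.9 without EPS at 0 min. Its low value without EPS at 0 min set both of its large differences, which share that array: 2.84-fold higher with EPS at 0 min, and 2.74-fold higher at 5 h without EPS.

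Oasl2 had a signal of 23.5 with EPS, not well above background, and 37.7 without EPS at 5 h, and of 62.8 with EPS and 90.5 without EPS at 0 min. By its levels it was 3.65-fold lower at 5 h than at 0 min with EPS and 2.25-fold lower without EPS. At 5 h it was 1.87-fold lower with EPS than without. The folds of 3.65 and 1.87 rest on the signal not well above background, so they are no firm bounds. Its time difference without EPS was -1.17, and -0.47 under normexp background correction. Oasl1 had the largest EPS difference among the genes of the set measured on both arrays compared, the 30th highest of 18590 at 0 min, and the only 1 of 29 measured genes at least 2-fold higher there, against 0.549% of all genes. Under normexp background correction with an offset of 50 its EPS difference at 0 min was 0.69 and its time difference without EPS 0.56. The signals of Oasl1 and Oasl2 are under 100, where the spot error is largest.

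**Figure D2:**
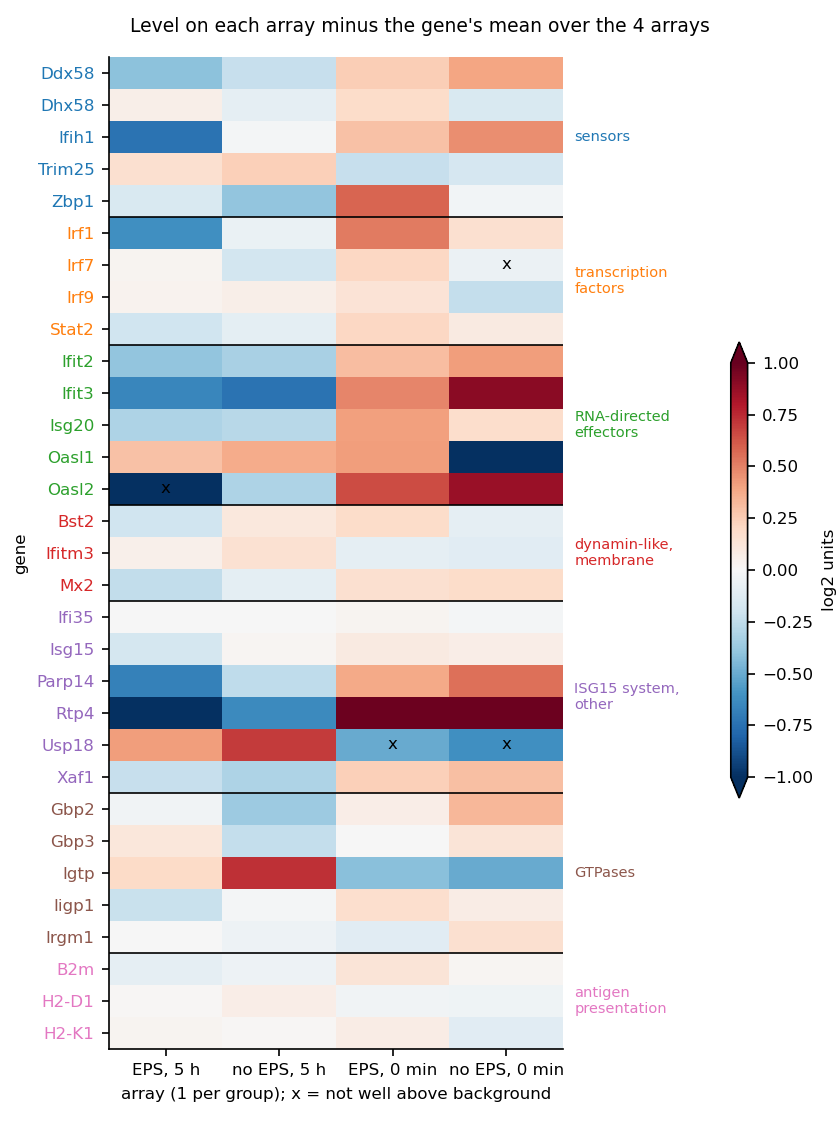
Level of each gene of the set on each array minus that gene's mean over the 4 arrays, in log2 units, with rows grouped by role and 1 column per array. Colours are capped at 1 in either direction, and an x marks a probe not well above background. Rtp4, Ifit3 and Oasl2 are blue on the 5 h arrays and red on the 0 min arrays, Igtp shows the opposite, and the antigen presentation rows are pale throughout.

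The membrane and dynamin-like effectors that were measured differed little. Ifitm3, which blocks the fusion of viruses with the cell, had signals of 16875.8 with EPS and 15582.5 without EPS at 5 h, and 11200.6 with EPS and 13769.8 without EPS at 0 min. Its time differences were 0.14 with EPS and 0.27 without EPS. Mx2, a dynamin-like GTPase, had signals of 94 with EPS and 89.5 without EPS at 5 h, and 91 with EPS and 115.3 without EPS at 0 min, and no difference exceeded 0.40 in size. Bst2, tetherin, which holds budding viruses at the cell surface, had signals of 359.1 with EPS and 381.6 without EPS at 5 h, and 344 with EPS and 353.5 without EPS at 0 min. Its EPS difference was -0.31 at 5 h and 0.28 at 0 min, opposite in sign.

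Rtp4, a membrane chaperone for receptors that interferon induces, had the largest time difference among the genes of the set measured on both arrays compared. Its signal was 237.1 with EPS and 326.1 without EPS at 5 h, and 857.6 with EPS and 1064.5 without EPS at 0 min. At 5 h it was 4.94-fold lower with EPS and 3.07-fold lower without EPS, ranking 46th lowest of 18469 and 126th lowest of 18488 genes. With EPS it was also 1.60-fold lower than without EPS at 5 h, whereas at 0 min the EPS difference was 0.01. Its probe lies at chromosome 16, 23613668 to 23613727, on build mm9 of the array design.

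Parp14, which attaches ADP-ribose to proteins, had a signal of 132.5 with EPS and 152.6 without EPS at 5 h, and 202.3 with EPS and 282.7 without EPS at 0 min. It was 2.08-fold lower at 5 h with EPS and 1.74-fold lower without EPS. Its neighbours in the RefSeq annotation, Dtx3l and Parp9, which encode partners in a ubiquitin ligase complex, stood at -1.06 and -0.96 with EPS and at -0.79 and -1.07 without EPS. The 3 adjacent genes thus had time differences of like size. Xaf1, which promotes cell death, had a signal of 544.8 with EPS and 442.2 without EPS at 5 h, and 551.8 with EPS and 716.9 without EPS at 0 min, and time differences of -0.47 with EPS and -0.61 without EPS.

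Isg15, the ubiquitin-like protein of the interferon response, differed by at most 0.26 in size in any comparison of arrays. Its signal was 320.9 with EPS and 315.2 without EPS at 5 h, and 281.9 with EPS and 345.9 without EPS at 0 min, and its time difference was -0.26 with EPS and -0.04 without EPS. Ifi35, a binding partner of the interferon-induced protein Nmi, differed by at most 0.05 in any comparison of arrays. Usp18, which removes Isg15 from proteins and dampens receptor signalling, was above background at 5 h alone, at 21.6 with EPS and 22.6 without EPS, against 8.4 with EPS and 9.7 without EPS at 0 min. With the 0 min arrays set to their lowest measurable level, Usp18 was 1.07-fold higher at 5 h with EPS and 1.18-fold higher without EPS. A brighter probe could still be not well above background, as for Mx1 at 29.0 without EPS at 0 min. These folds are therefore no firm bounds.

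The GTPases differed in direction. Igtp, a GTPase of the immunity-related family that acts on vacuoles holding pathogens, had a signal of 1404.1 with EPS and 1743.9 without EPS at 5 h, and 673.4 with EPS and 789.8 without EPS at 0 min. It was 1.53-fold higher at 5 h with EPS and 2.35-fold higher without EPS, and at 5 h it was 1.45-fold lower with EPS than without. Its probe is printed as 10 spots, whose levels were -0.09 ± 0.06 with EPS (SD, n = 9 spots) and 0.45 ± 0.05 without EPS (n = 10) at 5 h, and -0.70 ± 0.03 with EPS (n = 8) and -0.79 ± 0.06 without EPS (n = 8) at 0 min, after spots with an outlier flag were left out. The spots of the 5 h arrays did not overlap with each other or with those of the 0 min arrays. Spots of a probe are copies on 1 array, so this describes measuring error and not error between tissues. How many other probes printed as 10 spots were also apart was not counted. Irgm2, the adjacent gene and a member of the same family, had the same order, at 1.03 with EPS and 1.78 without EPS for time and -0.72 for EPS at 5 h.

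**Figure D3:**
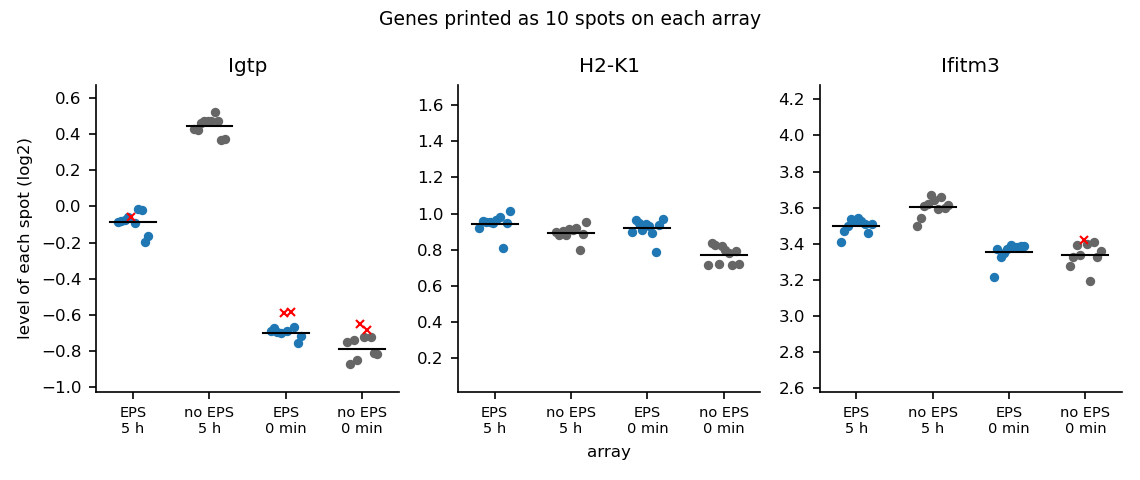
Level of every spot, in log2 units, of the probes for Igtp, H2-K1 and Ifitm3 that are printed as 10 spots, on each array. Each dot is a spot, red crosses are spots with an outlier flag, bars are means of the other spots, and each vertical axis spans the same number of log2 units. The Igtp spots of no EPS at 5 h lie above those of EPS at 5 h, and both lie above the 0 min spots, while the other panels show small steps.

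Irgm1, which regulates the other GTPases of that family, differed by at most 0.27 in any comparison of arrays. Iigp1, another member, had signals of 108.6 with EPS and 107.1 without EPS at 5 h, and 104 with EPS and 121.9 without EPS at 0 min by its brighter probe. Its dimmer probe read otherwise: with EPS its signal was 4.2 at 5 h and 13.5 at 0 min, not well above background, and without EPS 82.8 at 5 h and 93.0 at 0 min, well above it. The probes disagree, and which of them follows the transcript was not tested.

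Gbp2 and Gbp3, guanylate-binding proteins encoded near each other on chromosome 3, were each higher with EPS at 5 h. Gbp2 had a signal of 373.8 with EPS and 254.2 without EPS at 5 h, and 293.7 with EPS and 438.6 without EPS at 0 min, with an EPS difference of 0.34 at 5 h and -0.26 at 0 min. Gbp3 had a signal of 87.4 with EPS and 58.8 without EPS at 5 h, and 58.9 with EPS and 80.5 without EPS at 0 min, with an EPS difference of 0.35 at 5 h and -0.13 at 0 min. Under normexp background correction the difference of Gbp3 was 0.07 at 5 h and 0.04 at 0 min. The 2 probes that carry the name Gbp6 were not above background. By accession 1 of them is Gbp7 in RefSeq, and the probes named Mpa2l are Gbp6. The brighter Mpa2l probe had a signal of 180.3 with EPS and 344.9 without EPS at 5 h, and 299 with EPS and 385.7 without EPS at 0 min, with an EPS difference of -1.16 at 5 h, larger in size than that of any of the 30 genes of the set measured there.

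Class I antigen presentation was even across the arrays. B2m, the light chain of class I molecules, had a signal of 32887.9 with EPS and 29099.6 without EPS at 5 h, and 28041.8 with EPS and 32430.4 without EPS at 0 min, and its differences ranged between -0.22 and 0.11. H2-K1, a heavy chain, had signals of 6547.8 with EPS and 5547.3 without EPS at 5 h, and 4939.1 with EPS and 5430.4 without EPS at 0 min, with differences between -0.04 and 0.18 by its brighter probe; its dimmer probe is the one printed as 10 spots. H2-D1, the other heavy chain named in the set, had signals of 1897.7 with EPS and 1689 without EPS at 5 h, and 1340.6 with EPS and 1668.5 without EPS at 0 min, with differences between -0.05 and 0.11. None of the 3 reached 1.5-fold in any comparison. Tap1, a subunit of the peptide transporter, is printed as 10 spots and was not above background on any array, apart from single spots with an outlier flag.

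**Figure D4:**
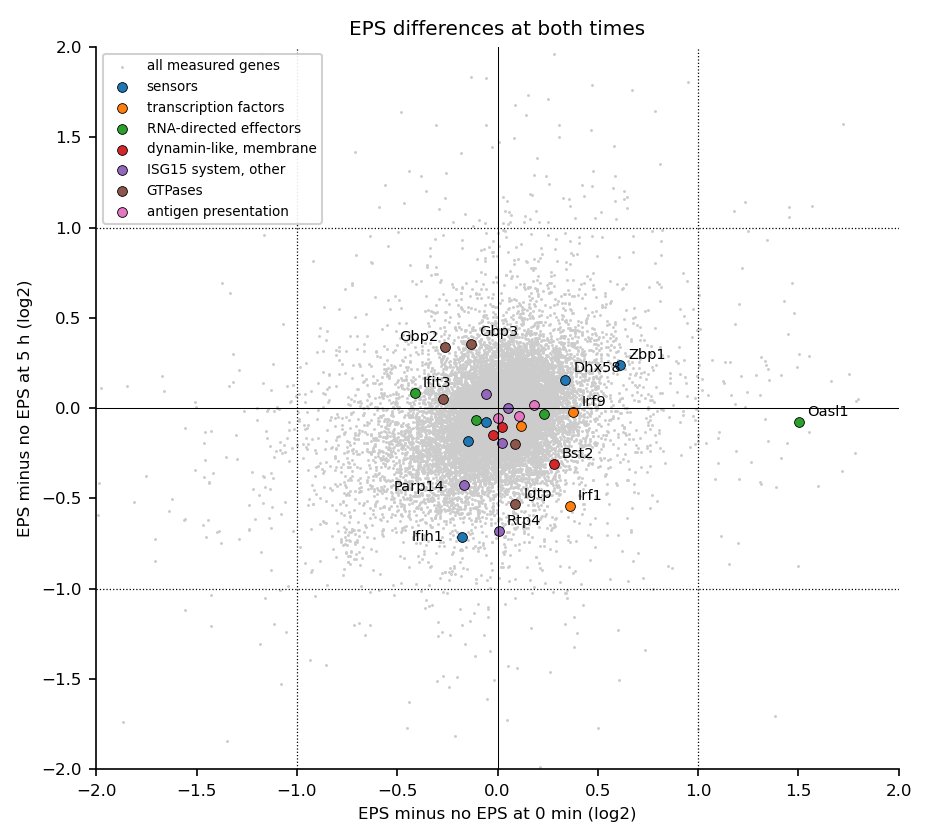
EPS minus no EPS in log2 units at 5 h (vertical axis) and at 0 min (horizontal axis) for the genes of the set measured on all 4 arrays, coloured by role, over all measured genes within the axes in grey. Dotted lines mark 2-fold. Oasl1 alone passes 2-fold, at 0 min, and Irf1, Bst2 and Igtp are among the many genes in the quadrant higher at 0 min and lower at 5 h.

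The EPS comparisons held few large differences within the set. At 5 h, 0 of 30 measured genes reached 2-fold higher with EPS, against 0.69% of all genes, 0 reached 1.5-fold higher, against 2.06%, and 0 were at least 2-fold lower, against 0.523%. Ifih1 and Rtp4 were at least 1.5-fold lower, which 2.96% of all genes were (1 gene under normexp correction, where Ifih1 stood at -0.365), and 20 of the 30 were lower and 10 higher, where 56.6% of all genes were lower. The median at 5 h was -0.07, against -0.03 for all genes, and scaling arrays to their median moved both, to 0.01 for the set and 0.05 for all genes. At 0 min, 1 of 29 was at least 2-fold higher, 0 were at least 2-fold lower (0.791% of all genes), and Oasl1 and Zbp1 were at least 1.5-fold higher, against 2.01%. At 0 min 0 were at least 1.5-fold lower, against 3.34%, and 17 of the 29 were above 0, against 54.5%. The median at 0 min was 0.02 for the set and 0.02 for all genes.

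The EPS difference at 5 h minus that at 0 min was below 0 for 22 of 28 genes, against 58.1% of all genes, with a median of -0.17 beside -0.05 for all genes. Oasl1, at -1.58, was the only gene beyond 2-fold, a size that 0.994% of all genes reached downward and 1.0% upward, while 5 were at least 1.5-fold lower and 1 higher, against 4.0% and 3.37%. The 5 sensors and the 3 measured transcription factors all lay below 0. Under other scalings, which were not run for Dhx58 here, Ddx58 and Trim25, at -0.03 and -0.02 by the main scaling, lay above 0 with median scaling (0.01 and 0.03) and Ddx58 also with normexp correction (0.04) and Trim25 with quantile normalization (0.04). Of the 5 measured GTPases 3 lay above 0. The EPS differences at the 2 times had a Pearson correlation of 0.015 and a Spearman correlation of -0.051 across the 28 genes, against 0.278 and 0.285 across all genes. Since the EPS and time comparisons share arrays, this difference of effects equals the time difference with EPS minus that without EPS, and it is no separate measurement.

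Upstream of the set, the receptors and kinases were measured on all arrays with small time differences. Ifnar1 and Ifnar2, the chains of the interferon-alpha and -beta receptor, stood at 0.23 and -0.25 with EPS and at 0.20 and -0.01 without EPS. Ifngr1 and Ifngr2, the chains of the interferon-gamma receptor, stood at -0.28 and -0.34 with EPS and at -0.09 and -0.27 without EPS. With EPS the kinases stood at 0.04 for Jak1, 0.30 for Jak2 and -0.14 for Tyk2, and without EPS at 0.06, 0.39 and -0.02.

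Among the feedback inhibitors, Socs1 was lower and Socs3 higher at 5 h without EPS. Socs1 had a signal of 479.2 with EPS and 394.2 without EPS at 5 h, and 792.3 with EPS and 763.5 without EPS at 0 min, and time differences of -1.17 with EPS and -0.86 without EPS. Socs3 had a signal of 11959 with EPS and 17466.8 without EPS at 5 h, and 8214.6 with EPS and 7307.8 without EPS at 0 min. Its EPS difference was -0.77 at 5 h and 0.49 at 0 min, a pair of signs that Irf1 also showed. Ptpn6, a phosphatase, was 2.09-fold lower with EPS at 5 h.

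In the nucleic acid sensing pathway, Myd88, the adaptor of Toll-like receptors, was the measured gene with the largest time difference, at 1.11 with EPS and 1.11 without EPS. Ifi204, a DNA sensor, stood at 0.88 with EPS and 0.71 without EPS, and Ikbke, a kinase that activates interferon factors, at -0.46 with EPS and -0.97 without EPS. Of 14 measured genes of this list, 1 was at least 2-fold higher and 0 were at least 2-fold lower in each time comparison, where 2.39% of all genes with EPS and 1.74% without EPS were higher, and 3.64% with EPS and 2.96% without EPS lower. Of 29 further interferon-stimulated genes measured, 7 were at least 1.5-fold lower with EPS and 4 without EPS, and 1 was at least 1.5-fold higher with EPS and 2 without EPS. Over all genes 12.5% with EPS and 9.38% without EPS were that much lower, and 7.9% with EPS and 6.6% without EPS that much higher. Trim21, an antibody-binding ubiquitin ligase, stood at -1.20 with EPS and -1.25 without EPS. This list had time medians of -0.30 with EPS and -0.15 without EPS.

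Other class I antigen processing genes were mostly even as well. Of 18 measured, 2 were at least 1.5-fold lower with EPS and 1 without EPS, against 12.5% and 9.38% of all genes, and the medians were -0.09 with EPS and -0.07 without EPS. Psmb8, a subunit of the immunoproteasome, was dim and stood at -0.91 with EPS and -1.11 without EPS, and Tap2, the partner of Tap1 in the transporter, at -0.75 with EPS and -0.20 without EPS. Of the 8 class II genes on the array, 3 were above background on any array. Cd74, the invariant chain of class II molecules, had a signal of 140.1 with EPS and 64.6 without EPS at 5 h, and 53.0 with EPS and 65.7 without EPS at 0 min, and its EPS difference was 0.90 at 5 h and 0.01 at 0 min.

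**Figure D5:**
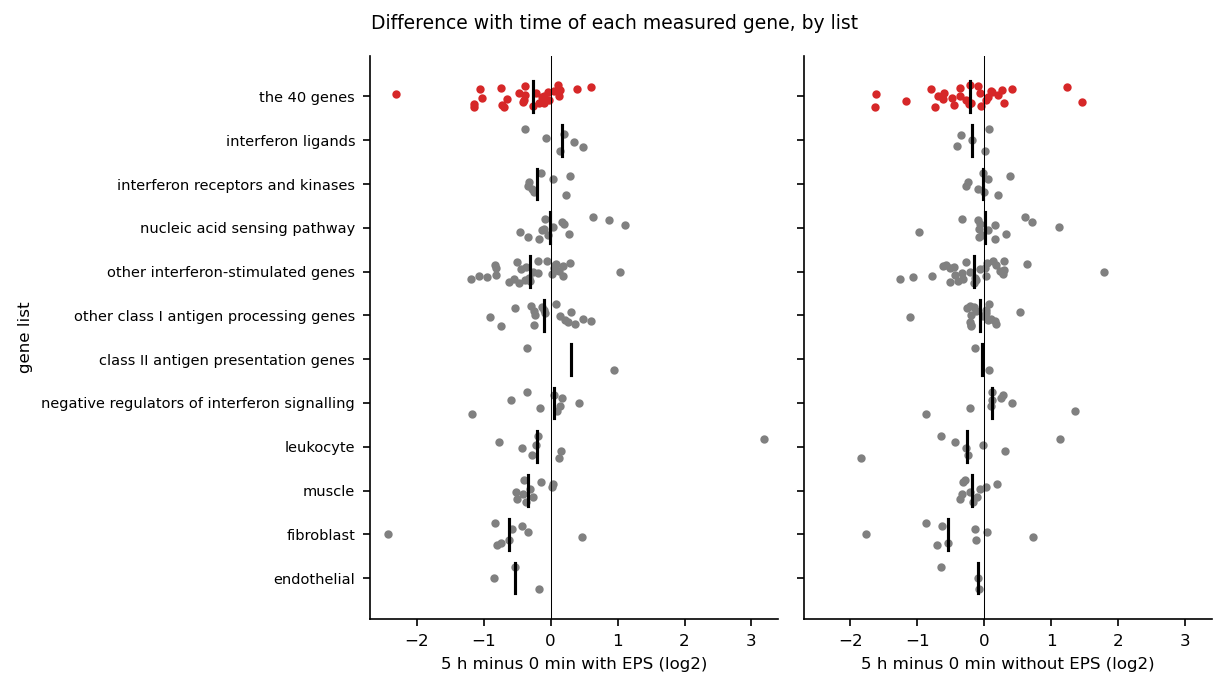
Time difference, 5 h minus 0 min in log2 units, of each measured gene by list, with EPS on the left and without EPS on the right. Each dot is a gene and the black bars are list medians. The 40 genes (29 measured in each comparison) and the further interferon-stimulated genes spread mainly below 0, fibroblast markers more so, and the receptors, class I processing genes and sensing pathway lie around 0.

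The ISRE core was found in genes of each kind of time difference. Of the 5 genes at least 1.5-fold lower at 5 h with and without EPS, 3 had a promoter entry and 2 of these, Ddx58 and Ifit3, held the ISRE core. Of the other 23 genes measured on all arrays, 19 had an entry and 10 held it, among them Isg15 and B2m, whose RNA hardly differed, and Igtp, which was higher at 5 h. Of the 9 genes above background on no array, 6 had an entry and 3 held it. These counts are descriptions of sequence windows, and no binding was measured.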

How the data were processed

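The values are spot intensities per the file headers, deposited as scanner output of Agilent Feature Extraction 10.7.3.1 on single-colour arrays, background-subtracted and detrended by that software. The deposited value table of the series equalled that processed signal at 44397 of 44397 spots on each array, so it is linear and uncentred; its column medians were 69.4 (EPS, 5 h), 64.0 (no EPS, 5 h), 57.6 (EPS, 0 min) and 75.2 (no EPS, 0 min). All 4 arrays lie on 1 slide. The labels disagree on the source of the RNA, engineered muscle in titles and extraction protocol but leukocytes in the labelling protocol, and EPS, spelled "electrical plus stimulation", was read as pulse.

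Of each array's 43020 non-control spots, those with an outlier flag (112 to 141 spots per array) were left out. Spots of a probe were averaged as log2 levels, and the brightest probe stood for a gene; 13 of the 40 genes had several probes, 53 in all, of which 50 matched RefSeq (GRCm38.p6, used for names, neighbours and promoters) by accession. Probe positions are those of the array design (mm9). A gene was measured in a comparison when well above background on both arrays, or on all 4 for the difference of EPS effects. Where 1 array measured it, a fold was computed with the dim side set to the array's lowest measurable level. That is the lowest level of any probe well above background on that array. Where the probe's own level was higher, as for Irf7 and Oasl2, it was used. Neither kind of fold is a firm bound. With 1 array per group no test was possible, and a size of 2-fold (also 1.5-fold) described differences; the number of arrays limits the precision.

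Genes given in full were those past 2-fold in any comparison and, per role, up to 3 further with the largest difference; from other lists, up to 3 per list plus Ifnb1, the receptors, kinases and Socs genes. A few more (Ifng, Dtx3l, Dhx58, Ifi35, Irgm1 and the probes named Mpa2l) were named after their values were seen. The 40 genes, the lists and the comparisons were chosen with earlier results of these data known. Alternatives were other scalings, background correction, filters and probe rules. Tools were Python 3.11.15, numpy 2.4.6, pandas 2.3.3, R 4.3.3 and limma 3.58.1. The scripts were tested on simulated data with the same noise for every gene, which checked the arithmetic and not the calls of dim genes. Some genes of the comparison lists are not reported here.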

Additional observations from a re-analysis of the deposited data

Results flagged for a closer look

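Irf1, Bst2 and Igtp were lower with EPS at 5 h and higher with EPS at 0 min, and Gbp2 was higher at 5 h and lower at 0 min, each by at least the median spot error. For Igtp the difference at 0 min, 0.088, was close to that error, 0.083 over all probes and 0.097 for signals of 100 to 1000. The EPS difference at 5 h minus that at 0 min was -0.905 for Irf1, -0.587 for Bst2, -0.621 for Igtp and 0.596 for Gbp2 on the log2 scale. With 1 array per group none of these differences was tested. Over all 18109 genes, 3.37% were at least 1.5-fold higher and 4.0% at least 1.5-fold lower by that difference.

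Dimmer second probes that no comparison used showed signal with EPS at 5 h where they were not well above background without EPS at 5 h. The dimmer probe of Xaf1 had a signal of 61.5 with EPS and 4.0 without EPS at 5 h, and 15.0 with EPS and 14.3 without EPS at 0 min. Its brighter probe differed by 0.08 with EPS at 5 h. The dimmer probe of Ddx58 had a signal of 26.5 with EPS and 19.5 without EPS at 5 h, and 24.9 with EPS and 38.6 without EPS at 0 min, so that it was brightest without EPS at 0 min.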

How the results depend on the processing

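No paired analysis was possible because the groups share fewer than 2 replicate numbers, and with 1 array per group none could be left out. Scaling to each array's median moved the median of all genes to 0.10 for time with EPS and 0.11 without EPS, against -0.08 and -0.02. There the set's median was -0.080 with EPS, -0.077 without EPS and 0.014 for EPS at 5 h. Relative to all genes the set's median for time was -0.18 with EPS and -0.19 without EPS. Median and 75th percentile scaling each subtract 1 number per array, so these relative values could not differ between them. Under median scaling, genes of the array at least 2-fold higher and lower numbered 736 and 414 for time with EPS (442 and 673 in the report), 470 and 388 without EPS (322 and 547), and 161 and 74 for EPS at 5 h (128 and 97). Normexp correction gave 255 and 341 for time with EPS, 186 and 226 without EPS, 43 and 31 for EPS at 5 h and 42 and 29 for EPS at 0 min. The number of genes of the set past 2-fold for time with EPS, 5 in the report, was 10 at 1.5-fold, 1 under median scaling, 9 with no filter on dim probes, 2 under normexp and 2 under quantile normalization. For time without EPS, 5 in the report, it was 10 at 1.5-fold, 9 with no filter and 3 under normexp. For EPS at 0 min, 1 in the report, it was 2 at 1.5-fold and 0 under normexp, and for EPS at 5 h, 0 in the report, 2 at 1.5-fold and 1 with no filter. For the difference of EPS effects, 1 in the report, it was 6 at 1.5-fold, 2 with no filter and 0 under normexp. The cause of these moves was not tested, apart from the larger number of genes without a filter. Another 61 values of medians and counts stayed close, and no called value changed sign. The deposited value table equals the scanner values, so using it could move none of these. Averaging probes likewise could not move the 27 genes of the set with 1 probe, so part of the closeness was fixed in advance. Of the values of single genes, 379 stayed close and 141 moved, some with a change of sign. For example, Gbp3 for time with EPS was 0.12, and -0.12 under normexp. Counting Mpa2l as Gbp6, chosen after seeing the data, moved no median beyond the spot error. It would add to the counts of genes at least 2-fold lower, since its brighter probe stood at -1.16 for EPS at 5 h and -1.18 for time with EPS. Signals under 100 limit Ifih1, Dhx58, Irf7, Oasl1, Oasl2, Usp18 and Gbp3, and on some arrays Ifit3 and Mx2.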
